A study of Mus musculus with 2 samples.

Results

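The AP-2 genes *Tfap2a*, *Tfap2b*, *Tfap2c*, *Tfap2d* and *Tfap2e*, together with the chromatin organizer gene *Satb1*, were examined for sites occupied by DLX2 in the upper jaw of the mouse embryo. A peak was taken as belonging to one of these 6 genes if it lay inside the gene or within 100 kb of it, with the gene extents of RefSeq on GRCm38, the build also called mm10. This gave 17 of the 28061 peaks of replicate 1 and 41 of the 62093 peaks of replicate 2. Stretches where a peak of one replicate overlapped a peak of the other, referred to as shared regions, numbered 9 at these genes out of 10921 in all. The study reported fewer peaks in each replicate and fewer common to both, so the counts here do not describe its peak set.

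Both libraries were CUT&Tag libraries made with an antibody against DLX2 from cells of the E12.5 maxillary process, the paired swelling of the embryonic face from which most of the upper jaw develops. Both came from wildtype mice, with C57BL/6 as the strain named, and form 1 group of 2 replicates. In CUT&Tag, an antibody directs a transposase to the DNA around its target, whereas the protocol in the labels describes sonicated nuclei, and these accounts could not be reconciled here. How many embryos were pooled is not given in the sources used here, and no control library or other genotype was analysed, so each value below is a description without a test between groups. Nothing states that the replicates came from separate litters, so the spread between them may be technical. The whole process was dissected, so mesenchyme, epithelium, nerve and vessel cells cannot be told apart, and a peak list holds no expression with which to check the tissue.

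AP-2 proteins are transcription factors that bind GC-rich DNA as dimers. *Tfap2a* and *Tfap2b* are active in neural crest cells and in facial ectoderm, and loss of *Tfap2a* in mice leads to severe clefting of the face. *Tfap2c* is best known from surface ectoderm, trophoblast and germ cells, *Tfap2d* from the developing brain and *Tfap2e* from the olfactory system. SATB1 folds chromatin and recruits remodelling enzymes, and has been studied most in T cells. DLX2 is a homeodomain protein of the group that recognizes DNA with a TAATT core.

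Shared regions were found at 4 of the 6 genes and they were distributed unevenly. *Tfap2c* had 6 of them, *Tfap2d* had 2, and *Tfap2b* and *Tfap2e* had 1 each, where 1 region counts for both *Tfap2b* and *Tfap2d* because these neighbouring genes are 35.0 kb apart. *Tfap2a* and *Satb1* had 0. Of the 21757 protein-coding genes, 60.3% had at least 1 shared region in the same window, so 4 of 6 is close to the background. Of the 6 genes 0 had a shared region inside their extent, against 14.6% of all protein-coding genes. With only 6 genes, 0 is close to that background too. Counted by region, 0 of 9 lay inside an AP-2 gene or *Satb1*, which allows a share of up to 33.3%, and the 95% Wilson interval ends at 29.9%. Of all shared regions on the autosomes and sex chromosomes, 46.7% lay inside a protein-coding gene of any kind, and 1 of these 9 did. The windows add 100 kb on each side of genes of 12.9 to 97.1 kb, so most of the searched DNA lies outside the 6 genes. No absence from gene bodies is read from these counts.

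**Figure D1:**
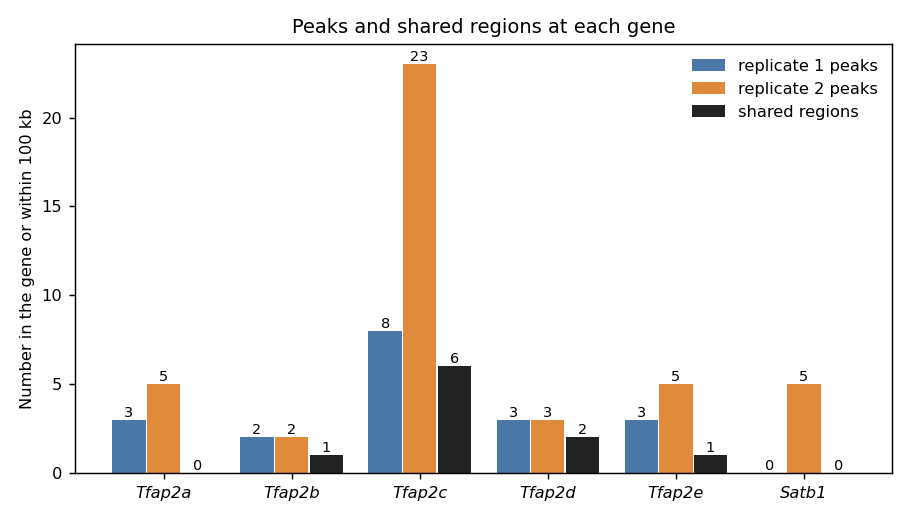
Bars give the number of replicate 1 peaks, replicate 2 peaks and shared regions inside each gene or within 100 kb of it, counted from 0, with *Tfap2b* and *Tfap2d* sharing part of their windows. *Tfap2c* had 8, 23 and 6, and *Satb1* had 0 replicate 1 peaks against 5 in replicate 2.

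The DNA around the starts of these genes was inspected to see how the peaks lie relative to it. RefSeq start windows on GRCm38.p6, running from 250 bases before a start to 50 after it, were present for 5 of the 6 genes, with 12 windows in all, some of which overlap. *Tfap2c* had no entry. No peak of either replicate met any of the 12 windows. How often start windows of all genes meet a peak was not counted, so nothing particular to these genes is read from this. The outermost window of each of 4 genes is printed 5′ to 3′ on the strand of the gene: *Tfap2d* and *Tfap2b* because a shared region lay before each start, *Tfap2a* because this relative had none, and *Tfap2e* because its start had the nearest peak of all. Capitals mark TAATT on either strand, which is TAATT or AATTA as printed. Overlapping matches such as TAATTA were counted as 1 site.

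Tfap2d, chr1:19102772-19103071, plus strand: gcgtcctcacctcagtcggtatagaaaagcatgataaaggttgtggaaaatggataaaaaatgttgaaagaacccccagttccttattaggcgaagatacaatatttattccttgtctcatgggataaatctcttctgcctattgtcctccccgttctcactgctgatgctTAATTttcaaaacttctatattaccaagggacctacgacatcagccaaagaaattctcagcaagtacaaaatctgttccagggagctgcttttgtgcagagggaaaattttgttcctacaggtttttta
Tfap2b, chr1:19211804-19212103, plus strand: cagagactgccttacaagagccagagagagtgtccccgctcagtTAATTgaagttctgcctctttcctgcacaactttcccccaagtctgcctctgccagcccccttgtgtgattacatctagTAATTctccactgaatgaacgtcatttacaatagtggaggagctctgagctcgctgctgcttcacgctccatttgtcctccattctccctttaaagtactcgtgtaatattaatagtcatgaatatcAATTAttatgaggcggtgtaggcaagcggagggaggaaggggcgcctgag
Tfap2a, chr13:40734871-40735170, minus strand: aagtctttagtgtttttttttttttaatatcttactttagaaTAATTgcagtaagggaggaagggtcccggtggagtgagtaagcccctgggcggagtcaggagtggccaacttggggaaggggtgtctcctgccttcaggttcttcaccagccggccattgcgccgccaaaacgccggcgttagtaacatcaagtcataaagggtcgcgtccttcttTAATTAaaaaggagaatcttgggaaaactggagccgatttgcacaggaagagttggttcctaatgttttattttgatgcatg
Tfap2e, chr4:126736220-126736519, minus strand: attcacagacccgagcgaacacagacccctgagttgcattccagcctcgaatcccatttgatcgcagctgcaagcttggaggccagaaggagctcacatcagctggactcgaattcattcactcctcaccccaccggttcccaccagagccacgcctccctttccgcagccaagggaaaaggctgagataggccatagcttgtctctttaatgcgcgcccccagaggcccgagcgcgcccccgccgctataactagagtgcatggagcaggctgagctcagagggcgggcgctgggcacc

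The window of *Tfap2b* held 3 such sites, that of *Tfap2a* 2, that of *Tfap2d* 1 and that of *Tfap2e* 0. Of all 32851 start windows of the same length, 27.0% held at least 1 site, and 5 of the 12 windows of these genes did. Among these 5, windows 1 and 2 of *Tfap2d* overlap and hold the same site, so no excess is read from the count. A match in these letters is a description and not a binding site. From the *Tfap2e* window the nearest replicate 2 peak was 1.29 kb away, inside the gene, but the nearest replicate 1 peak was 68.0 kb away. From the *Tfap2b* window the nearest peaks were 5.49 kb away in replicate 1 and 2.02 kb away in replicate 2. From the *Tfap2a* window they were 16.8 kb and 11.5 kb away.

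*Tfap2d* and *Tfap2b*, which lie head to tail on chromosome 1, each had a shared region at a short distance before the start. The *Tfap2d* region, chr1:19095320-19095593, lay 7.43 kb before the gene, within the extent of the long non-coding RNA gene *Gm15825*. Fold enrichment compares the fragments stacked at the summit with the background assigned to that place. At this region it was 7.21 in replicate 1 and 6.19 in replicate 2. The *Tfap2b* region, chr1:19199848-19200030, lay 8.88 kb before that gene and 25.9 kb past the end of *Tfap2d*, in no annotated gene. Its fold was 6.49 in replicate 1 and 7.62 in replicate 2. Thus the replicates did not rank these neighbours alike, with the higher fold at *Tfap2d* in replicate 1 and at *Tfap2b* in replicate 2.

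Both regions stood on the lowest background of their libraries. The numbers of fragments at the summit, recovered from the deposited fold and −log10 p, were 9 in replicate 1 and 12 in replicate 2 for the *Tfap2d* region, and 8 and 15 for the *Tfap2b* region. With 9 fragments against 8 on the same background, little is read from the order of the folds in replicate 1. The −log10 q of the *Tfap2d* region was 6.33 and 5.90, and that of the *Tfap2b* region 5.17 and 8.87. The summits were 58 bp apart at the *Tfap2d* region and 152 bp apart at the *Tfap2b* region, so the latter is lost when summits must lie within 150 bp. From the only listed start of *Tfap2b*, which is inside its extent, the region was 12.0 kb away. Within *Tfap2b* each replicate had 1 further peak, of 5.05-fold in replicate 1 and 3.81-fold in replicate 2, but these were 3247 bp apart and did not meet. The extent of *Tfap2d*, 70.9 kb long, held 0 peaks in both replicates.

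**Figure D2:**
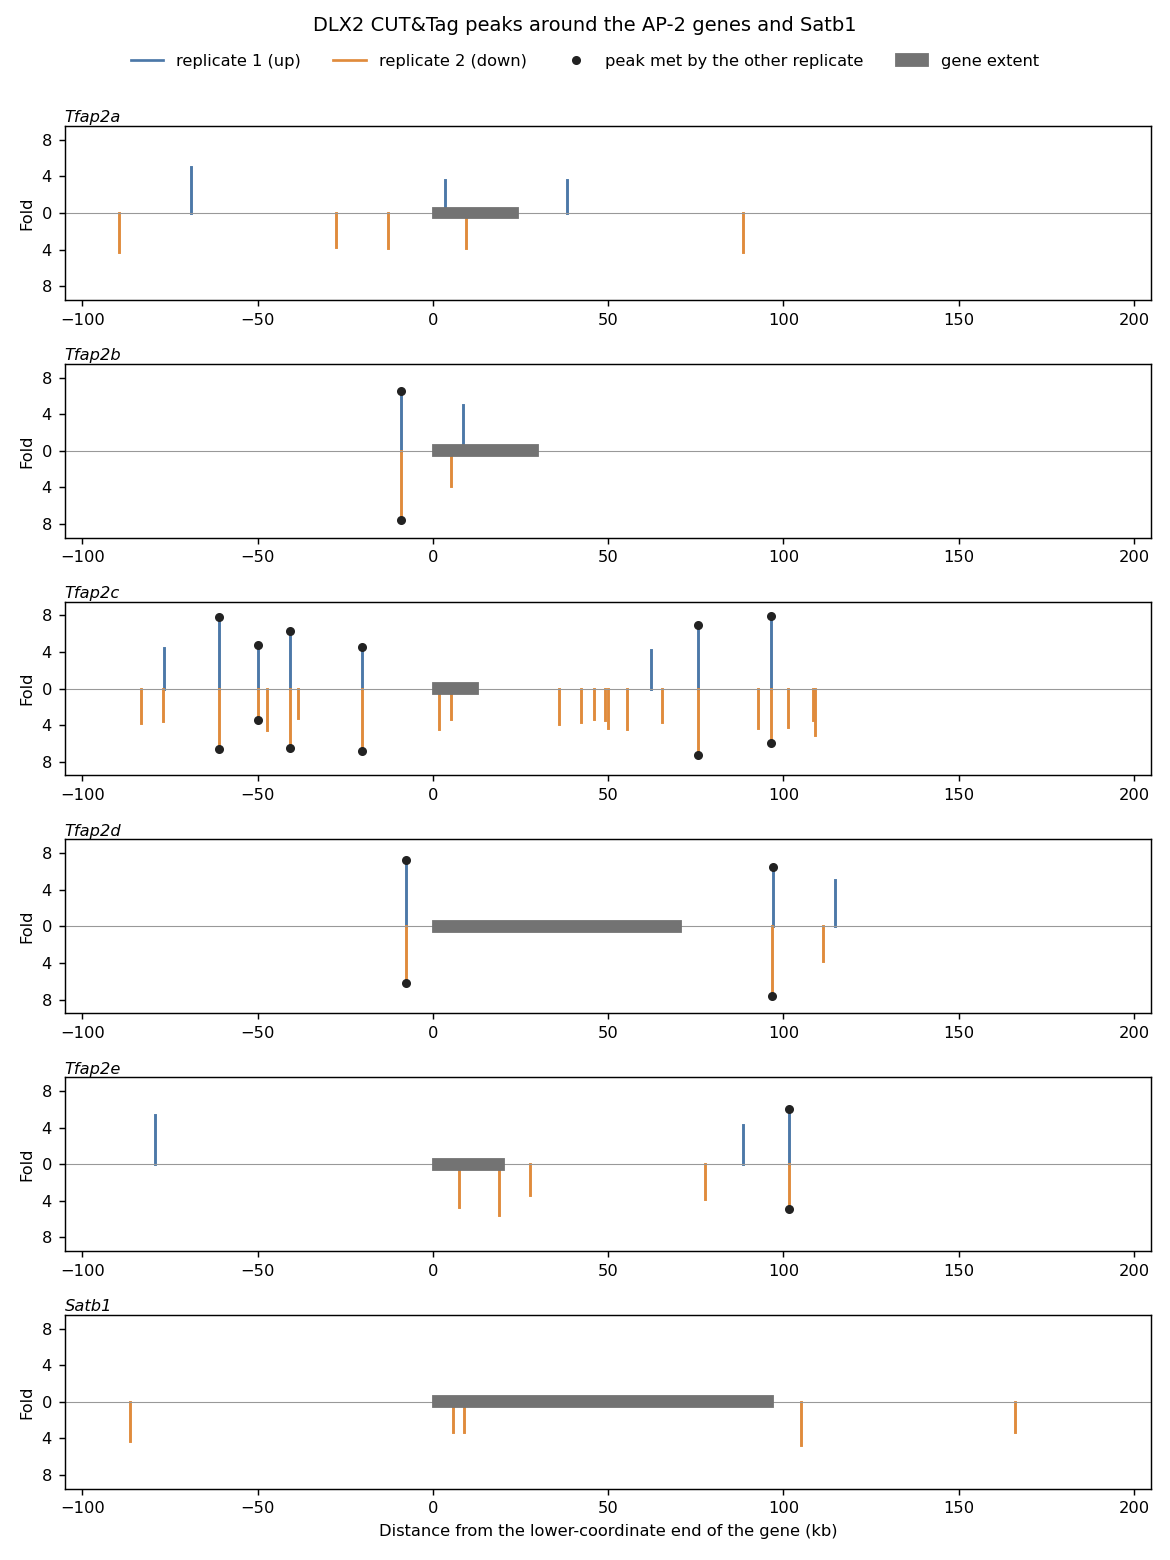
Each panel shows peaks around a gene by distance from its lower-coordinate end (x axis, kb, not turned to the strand), with lines of a height equal to the fold, upwards for replicate 1 and downwards for replicate 2. Black dots mark peaks met by the other replicate: 6 pairs flank *Tfap2c*, pairs stand before *Tfap2d* and *Tfap2b*, and *Tfap2a* and *Satb1* have none.

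*Tfap2c* had the densest group of shared regions, at 28.2 per Mb of window against 7.38 at *Tfap2d*, the next in order. The 6 regions spanned 158 kb around a gene of 12.9 kb, with 4 on the side of lower coordinates and 2 on the side of higher coordinates, and the nearest was 20.03 kb from the gene. Of all protein-coding genes, 2.36% had at least 6 shared regions in their window. This gene also had 8 peaks in replicate 1 and 23 in replicate 2, numbers reached by 11.0% and 2.63% of protein-coding genes.

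From lower to higher coordinates, the first shared region at *Tfap2c* was chr2:172484420-172484880, 60.8 kb from *Tfap2c*, where replicate 1 reached 7.85-fold and replicate 2 reached 6.60-fold. The second, chr2:172495647-172495790, had folds of 4.71 and 3.41, the latter the lowest of the 9 in replicate 2. The third, chr2:172504786-172505239, 40.4 kb from the gene, had folds of 6.26 and 6.52. Both the second and the third lay within the extent of the long non-coding RNA gene *Gm40009*, for which no function is given in the sources used here. The fourth region, chr2:172525351-172525649, was the nearest to *Tfap2c* and differed most between replicates, at 4.57-fold in replicate 1 and 6.85-fold in replicate 2. The fifth, chr2:172621106-172621356, lay 62.5 kb away on the other side with folds of 6.90 and 7.28. The sixth, chr2:172642016-172642402, lay 83.4 kb away with folds of 7.95 and 6.00. In 4 of the 6 regions the fold was at least 6 in both replicates, the exceptions being the second and the fourth. The −log10 q at the exceptions was 2.64 and 1.71 for the second and 2.45 and 8.50 for the fourth, in replicates 1 and 2.

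Other coding genes share this neighbourhood. The first 4 regions also lay within 100 kb of *Fam209*, *Gcnt7*, *Rtf2* and *Cass4*, and 3 of them were nearer to *Fam209* than to *Tfap2c*. For the 2 regions on the higher side, *Tfap2c* was the only protein-coding gene within 100 kb. Inside *Tfap2c* itself, replicate 2 had 2 peaks with folds of 4.37 and 3.31, which replicate 1 did not list. On the lower side the lists nearly met once more, since a replicate 1 peak with a fold of 4.42 and a replicate 2 peak with a fold of 3.57 were 68 bp apart.

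The recovered local background was higher at *Tfap2c* than at the other genes. Its median over the peaks there was 0.756 fragments in replicate 1 and 1.88 in replicate 2, against 0.387 and 1.101 over the peaks at the other 5 genes. Of all peaks in the lists, 11.7% in replicate 1 and 13.6% in replicate 2 had a background at or above these medians for *Tfap2c*. None of the peaks at *Tfap2c* lay at the lowest background of its library, whereas 26.3% of all replicate 1 peaks and 31.5% of all replicate 2 peaks did. The part of this background in the number of peaks at *Tfap2c* was not tested.

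*Tfap2e* had 1 shared region, chr4:126817305-126817919, far before its start at a distance of 81.0 kb. It lay within the protein-coding gene *AU040320*, so that it is nearer to that gene than to *Tfap2e*. Its fold was 6.04 in replicate 1 and 4.88 in replicate 2, with 8 and 11 fragments at the summit. At 615 bp it was the longest of the 9 regions. Replicate 2 listed 2 peaks inside *Tfap2e*, with folds of 5.59 and 4.70. The former had the highest fold among the peaks at these genes that were not met in the other list, where the nearest peak was 69605 bp away.

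*Tfap2a*, the AP-2 gene most closely tied to facial development, had 3 peaks in replicate 1 and 5 in replicate 2, and 0 of them met. In replicate 1 the folds were 5.01, 3.60 and 3.60, and in replicate 2 they were between 3.68 and 4.28. Each replicate had 1 peak inside the gene, of 3.60-fold in replicate 1 and 3.81-fold in replicate 2, and these were 5730 bp apart. They rested on 4 and 7 fragments, with a −log10 q of 1.33 and 1.92. The nearest shared region to *Tfap2a* was 412 kb away. No site listed in both replicates was detected at *Tfap2a*, which does not show that there is none.

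*Satb1* had 0 peaks in replicate 1, although its window of 297 kb was the longest of the 6. Of all protein-coding genes, 83.1% had a replicate 1 peak in their window, and 5 of these 6 genes did. In replicate 2 *Satb1* had 5 peaks, 2 of them inside the gene. Their folds were 3.33 to 4.76, with a −log10 q of 1.35 to 3.32 and 6 to 9 fragments. The peak of highest fold stood 7.80 kb before the outermost start. The lowest local background over all peaks was 0.387 fragments in replicate 1 and 1.101 in replicate 2. The fewest fragments at a summit were 4 and 6 in the same order. Whether replicate 1 could have listed the replicate 2 peaks at *Satb1*, or those inside *Tfap2c* and *Tfap2e*, was not tested. A replicate 2 peak was present for 91.7% of protein-coding genes and for 6 of these 6. The nearest shared region to *Satb1* was 177 kb away, which is within reach of a window of 200 kb.

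The distance limit of 100 kb decided some of these counts. The farthest regions just inside it were those at 83.4 kb from *Tfap2c* and at 81.0 kb from *Tfap2e*. The next shared regions outside lay 113 kb from *Tfap2b*, which is the region before *Tfap2d*, 172 kb from *Tfap2c* and 359 kb from *Tfap2e*.

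Considered together, 5 of the 9 shared regions lay in no annotated gene, 3 lay in a long non-coding RNA gene and 1 in a protein-coding gene. Of all shared regions on the autosomes and sex chromosomes, 46.7% lay inside a protein-coding gene. The shares in long non-coding RNA genes and in no gene were not counted over all, so nothing is read from those numbers. The annotation used gives gene extents only, so exons, introns and untranslated regions were not assigned. The fold was higher in replicate 1 at 5 of the 9 regions and higher in replicate 2 at 4. The lower of the pair of folds had a median of 6.19 at these genes and of 4.51 over all shared regions. A fold of at least 5 in both replicates was found at 6 of the 9, or 66.7%, against 35.1% of all shared regions. Their median length was 299 bp against 151 bp over all. The summits of the replicates were 9 to 152 bp apart, with a median of 58 bp, against 63 bp over all shared regions.

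**Figure D3:**
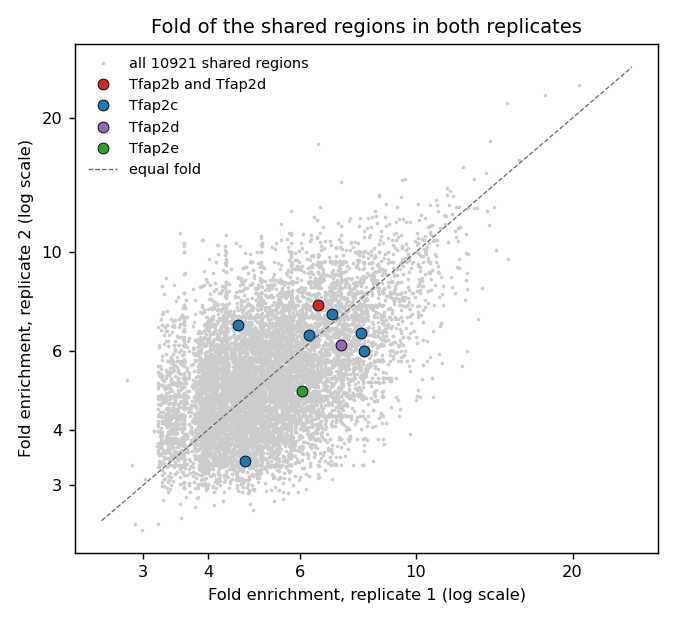
Each point is a shared region, placed by its fold in replicate 1 (x axis) and in replicate 2 (y axis), both on log scales, with all 10921 in grey and the 9 at AP-2 genes in colour. The coloured points lie on both sides of the dashed line of equal fold, 5 below it and 4 above it.

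Peaks met by the other replicate had the higher median fold in each list, at these genes as over all peaks. Over all peaks the medians were 5.05 for those met and 4.26 for the rest in replicate 1, and 5.09 and 3.94 in replicate 2. In replicate 1, the 9 peaks at these genes that were met had a median fold of 6.49, and the 8 that were not had 4.37. In replicate 2, the 9 that were met had a median fold of 6.52, and the 32 that were not had 3.81. The share met was 52.9% in replicate 1 (95% Wilson interval 31.0 to 73.8%) and 22.0% in replicate 2 (interval 12.0 to 36.7%). Over all peaks these shares were 38.9% and 17.2%, which are within the intervals. Without the window of *Tfap2c* the shares at these genes were 33.3% of 9 peaks in replicate 1 and 16.7% of 18 in replicate 2. Both are below the shares over all peaks. The intervals cover counting error only and treat neighbouring peaks as independent.

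**Figure D4:**
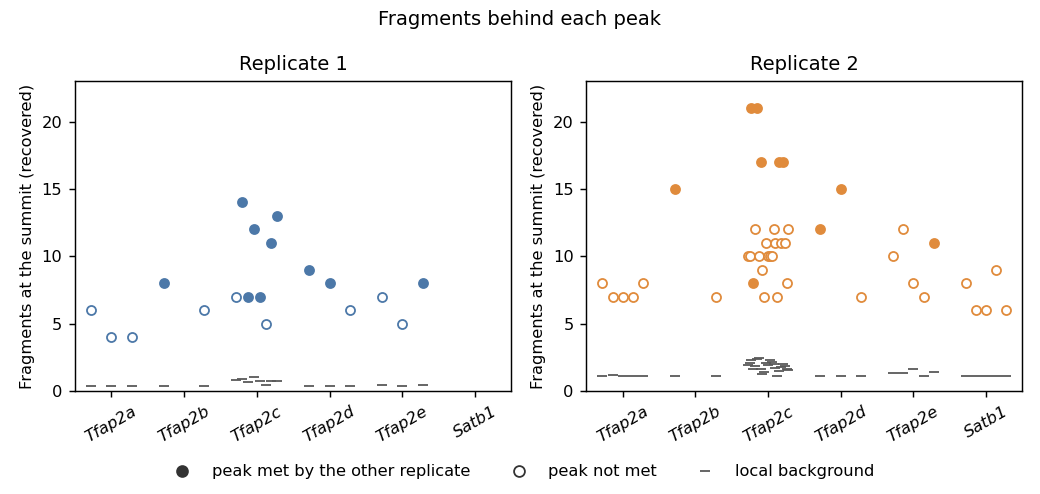
Circles give fragments recovered for each peak summit (y axis, counted from 0) by gene, filled where the other replicate had a peak at the same place, and dashes give the local background. The filled circles reach 14 in replicate 1 and 21 in replicate 2, both at *Tfap2c*, where the dashes are also highest.

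The windows of the 6 genes covered 1.29 Mb when merged. Shared regions there had a density of 6.97 per Mb against 4.09 per Mb over the chromosomes, a ratio of 1.70. Without the window of *Tfap2c* 3 regions remained and the ratio was 0.680, below 1. The ratio also moved with the choice of peaks, to 7.35 where the −log10 q had to reach 5, 3.23 where the fold had to reach 5 and 2.63 where 50% of each peak had to be shared, and these settings were not repeated without *Tfap2c*. For single replicates the ratio of peaks per Mb was 1.25 in replicate 1 and 1.36 in replicate 2. The median number of shared regions per gene was 1 over the 6 genes and 1 over all protein-coding genes.

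**Figure D5:**
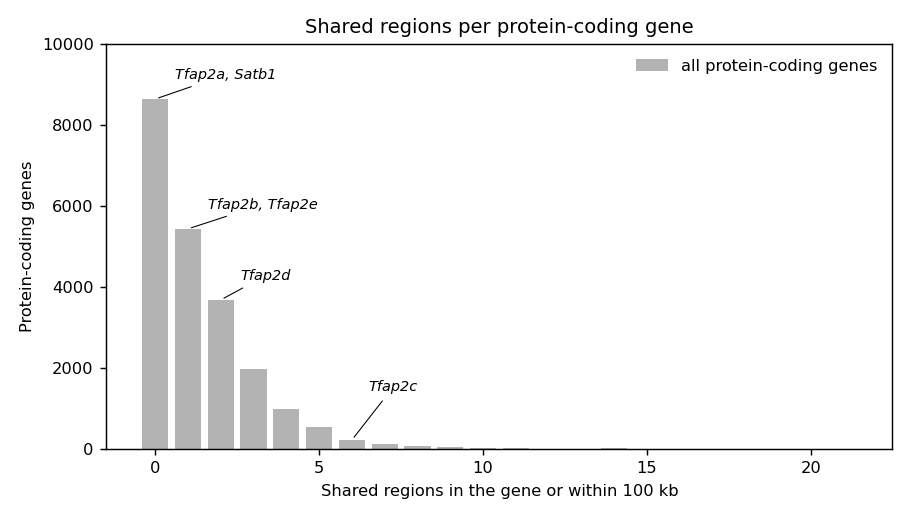
Bars give how many of the 21757 protein-coding genes (y axis, counted from 0) had each number of shared regions inside or within 100 kb (x axis), with the examined genes marked. *Tfap2a* and *Satb1* are in the class of 0, as 39.7% of genes are, and *Tfap2c* is in the tail at 6.

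Genes whose products work with these factors were counted in the same way. The AP-2 partners were the coactivators *Cited1*, *Cited2*, *Cited4*, *Ep300* and *Crebbp*, the inhibitors *Kctd1* and *Kctd15* and the interacting protein *Yeats4*. Of these 8 genes 5 had a shared region, against 60.3% of all protein-coding genes, with a median of 1.5. A shared region lay inside 2 of the 8, against 14.6% of all protein-coding genes. *Kctd15* had 3, the nearest of them 1.46 kb from the gene with folds of 5.62 and 4.58. *Kctd1* had 2, both inside, and *Yeats4* had the most, with 4, a number reached by 9.41% of protein-coding genes. *Crebbp* had 3 and *Cited1* had 1.

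The SATB1 partners were the deacetylase *Hdac1*, the acetyltransferase *Kat2b*, the corepressor *Ctbp1*, the remodelling factors *Smarca5*, *Baz1a* and *Chd4* and the β-catenin gene *Ctnnb1*. Of these 7 genes 4 had a shared region, with a median of 1, and 2 held one inside. *Ctnnb1* had 5, a number reached by 4.86% of protein-coding genes, the nearest 24.9 kb away with folds of 5.89 and 6.26. *Smarca5* had 3, *Ctbp1* had 2 and *Kat2b* had 1. The same 60.3% and 14.6% of all protein-coding genes stand beside these counts, and nothing particular to either list was read from them.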

How the data were processed

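CUT&Tag peaks of 2 libraries of 1 group were analysed, numbered as replicates in the order of their records. The submitters' processing notes name Trim Galore 0.4.5, Bowtie 1.1.2, MACS2 2.2.7 and mm10, while the methods of the study name bowtie2. Settings of the peak caller and any control track are not given in the sources used here. The lowest −log10 q listed was 1.00 in both replicates, so weak calls are among the peaks. Peaks were listed by the authors for each library, not on pooled reads. Per the file layout, the deposited score is the whole part of 10 times the −log10 q (true of 100% of peaks). The deposited fold is the ratio of summit to local background, and the deposited −log10 p and −log10 q are those of the peak caller. A stricter or looser calling threshold would change which weak peaks could be matched.

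The peak lists give no read totals. Fragments at a summit were recovered on the assumption that the fold is fragments plus 1 over background plus 1 and that p is a Poisson tail. A whole number within 0.001 of the −log10 p was found for 100% of peaks, and these numbers are inferences. Over all peaks the median was 6 fragments in replicate 1 and 9 in replicate 2, and counting error of weak peaks is accordingly large.

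Shared regions needed 1 bp in common. Gene extents came from RefSeq GRCm38.p6, leaving 49551 of 49997 genes after those without a place or starting before position 3000000 were dropped, 21757 of them protein-coding. Chromosome spans were taken from there to the last gene or peak, since no genome sequence was used here, and sequences of the shared regions were therefore not analysed. Start windows came from the RefSeq tables.

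The genes, lists and alternatives were chosen with earlier results of these data known. Named items were the 6 genes, their shared regions, the 3 peaks of highest fold per gene and replicate, the genes holding or nearest to a region, and the partner lists, of which 1 gene is not reported here and was left out of the counts. Peaks inside a gene, pairs that nearly met and other genes near a region were named after their values were seen. Overlap counts and fragment recovery were tested on simulated data. Tables were handled with pandas 2.3.3 and numpy 2.4.6 under Python 3.11.15, intervals came from statsmodels 0.14.6, Poisson tails from scipy 1.17.1 and plots from matplotlib 3.10.9. Alternatives were the filters, windows, overlap rules and single replicates described at the end.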

Additional observations from a re-analysis of the deposited data

How the results depend on the processing

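Of 62 alternatives to the main counts, shares and density, 34 were counted as unchanged. This meant within 1.5 times the main count, the interval of the share or 1 SD of the density ratio. The SD, 0.0794, was taken from the peak density ratios of the single replicates, not from the ratio of shared regions that it was used to judge. The 9 shared regions became 6 with the stricter limit on q and 6 at a fold of at least 5. With a window of 50 kb there were 5, and with each replicate alone from 17 to 41, by construction. Regions inside the genes were 0 under each filter and overlap rule and 2 to 8 with each replicate alone. The limits on q and fold, the 50% overlap rule and the 50 kb window can only remove shared regions. A count of 0 could therefore not change under them, and their outcome carries no weight for regions inside the genes, *Tfap2a* or *Satb1*. Such settings are nevertheless among those counted as unchanged. Leaving out the window of *Tfap2c*, chosen after seeing the data, left 3 regions and a density ratio of 0.680. That ratio, 1.70 in the main analysis, was 7.35 with the stricter and 2.05 with the looser limit on q (−log10 q from 5 or from 2 upwards), 3.23 at a fold of at least 5, 1.55 with 50 kb, 1.28 with 200 kb, 2.63 when 50% of each peak was shared, 1.82 with summits within 150 bp and 1.25 to 1.36 with each replicate alone. Why the ratio moved, the cause, was not tested. Replicate 1 peaks at the genes numbered 6 with the stricter limit on q, 10 at a fold of at least 5, 9 with 50 kb and 35 with 200 kb. Replicate 2 peaks numbered 8, 9, 25 and 75 in the same order, and 26 with the looser limit on q. With the stricter limit on q, 100% of these 6 replicate 1 peaks and 75% of these 8 replicate 2 peaks were met. At a fold of at least 5, 66.7% of 9 replicate 2 peaks were met. The shares over all peaks at these limits are not given here, and met peaks had the higher median fold over all peaks too. Nothing particular to these genes is read from the shares at these limits. For single genes 16 of 54 counts moved by more than 1.5 times, 10 up and 6 down, single replicates included. *Tfap2e* had 0 with the stricter limit on q, at a fold of at least 5 and with 50 kb, and 1 with the looser limit on q, and *Satb1* had 1 with 200 kb. No paired analysis was possible because there was 1 group. With no control library, sites of DLX2 cannot be told apart from background shared by both libraries.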
